A study of Mus musculus with 144 samples.

Results

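The collagen genes of mouse liver, defined as every symbol of the form Col, a type number, a and a chain number, were described in whole liver and in isolated liver cells after loss of REV-ERB from hepatocytes. The rule found 44 symbols among 24421 in the files, on 54 transcript rows. 9 symbols had more than 1 row, and the row with the largest mean was kept for each. By protein family the members were 11 fibrillar chains, 6 basement membrane chains, 8 beaded filament chains, 9 fibril-associated chains, 2 multiplexins, 3 short-chain network chains, 4 transmembrane chains and 1 anchoring fibril chain. The naming rule uses no measured value, and the mean picked only the row of a symbol, but collagens were taken up with earlier results of these data known.

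The nuclear receptors REV-ERBα (gene Nr1d1) and REV-ERBβ (gene Nr1d2) repress transcription and form a limb of the circadian clock. The study compared male C57BL/6J mice on normal chow with a REV-ERB α/β double knockout in adult hepatocytes and control mice labelled WT, asking how the hepatocyte clock and the time of feeding together set daily gene expression in several liver cell types. Knockout and control livers were collected under reverse-phase feeding and under ad libitum feeding at ZT1, 4, 7, 10, 13, 16, 19 and 22, where ZT is hours after lights on. Endothelial cells and Kupffer cells, the resident macrophages of liver, were isolated from knockout and control livers at ZT4, 10, 16 and 22. Each of the 48 groups had 3 libraries, 144 in all. The labels give no age. The column headings carry CRE for the knockout and GFP for the control, read here as a recombinase and a control vector, so what the mice received differed along with the genotype and the effects of both cannot be told apart. Nothing in the labels ties each library to a separate animal, and the p-values therefore measure the spread among libraries, which may be technical.

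Collagens are secreted matrix proteins whose chains wind into a helix. Fibrillar collagens such as types I, III and V build the fibres that scar tissue accumulates, type IV forms the sheet of basement membranes, type VI forms beaded microfilaments, and fibril-associated collagens coat the fibres. Types XV and XVIII, the multiplexins, sit at the edge of basement membranes, and type XVIII carries the fragment endostatin at its end. In liver the stellate cells, vitamin A-storing cells of the space beside the sinusoids, are the best known source of fibrillar collagen, endothelial cells make type IV collagen, and hepatocytes are known to make type XVIII. Bulk liver RNA mixes all of these, so more or fewer cells of a type and more or less RNA per cell cannot be told apart in the liver values.

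Counts assigned to 1 row per symbol came to 13117800 to 26191900 per library under reverse-phase feeding and 4567610 to 10364900 ad libitum. Liver values are given in CPM, counts scaled to a common library total after trimmed-mean (TMM) adjustment. The isolated-cell values are the deposited signal, in which every library of a table shares the same set of sorted values, so depth cannot be read from them. By spread around their group, by slope on transcript length or by ribosomal RNA, 9 libraries stood apart, 4 ad libitum, 0 under reverse-phase feeding, 3 of endothelial cells (all 3 from knockout livers at ZT22) and 2 of Kupffer cells. Nr1d1 averaged 93.9 ± 30.5 CPM in reverse-phase-fed knockout livers and 35.5 ± 30.7 CPM in control livers (SD, n = 24 each), and 73.2 ± 51.8 against 45.8 ± 57.5 CPM ad libitum. These counts cover the whole transcript and the deleted part is not given in the sources used here, so they do not check the deletion. The defining markers of each labelled sample type were present: the 17 endothelial markers summed to 69594 to 99873 signal in endothelial libraries of knockout livers and 80624 to 100331 in those of control livers, and the 12 Kupffer markers to 142319 to 164901 and 141341 to 163190.0 in Kupffer libraries.

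Among collagens with enough reads to test, the changes in knockout liver were mostly rises of modest size, beside 2 steeper falls. Under reverse-phase feeding 16 of 30 tested members were called higher and 2 lower, and ad libitum 14 of 23 were called higher and 2 lower. Called here means a Benjamini-Hochberg adjusted p below 0.05 over all genes of the table in edgeR's quasi-likelihood test, of knockout against control averaged over the day. Of all genes tested, 26.9% were called under reverse-phase feeding, 12.7% as higher and 14.2% as lower, and 27.2% ad libitum, 13.7% as higher and 13.5% as lower. The median log2 difference, knockout minus control, of the tested collagens was 0.37 under reverse-phase feeding and 0.41 ad libitum, beside -0.006 and -0.004 over all genes. The difference was positive in 27 of 30 and in 19 of 23 tested members. 14 members were called under both schedules, all 14 in the same direction, which is 77.8% of those called under reverse-phase feeding and 87.5% of those called ad libitum (all genes, 60.4% and 65.8%). Col5a1, Col6a1, Col7a1 and Col16a1 were called under reverse-phase feeding alone, with Col7a1 not tested ad libitum, and Col4a5 and Col6a3 ad libitum alone. Leaving out the libraries that stood apart left 14 members called ad libitum, 12 higher and 2 lower, with the calls of Col11a2 and Col6a3 lost.

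**Figure D1:**
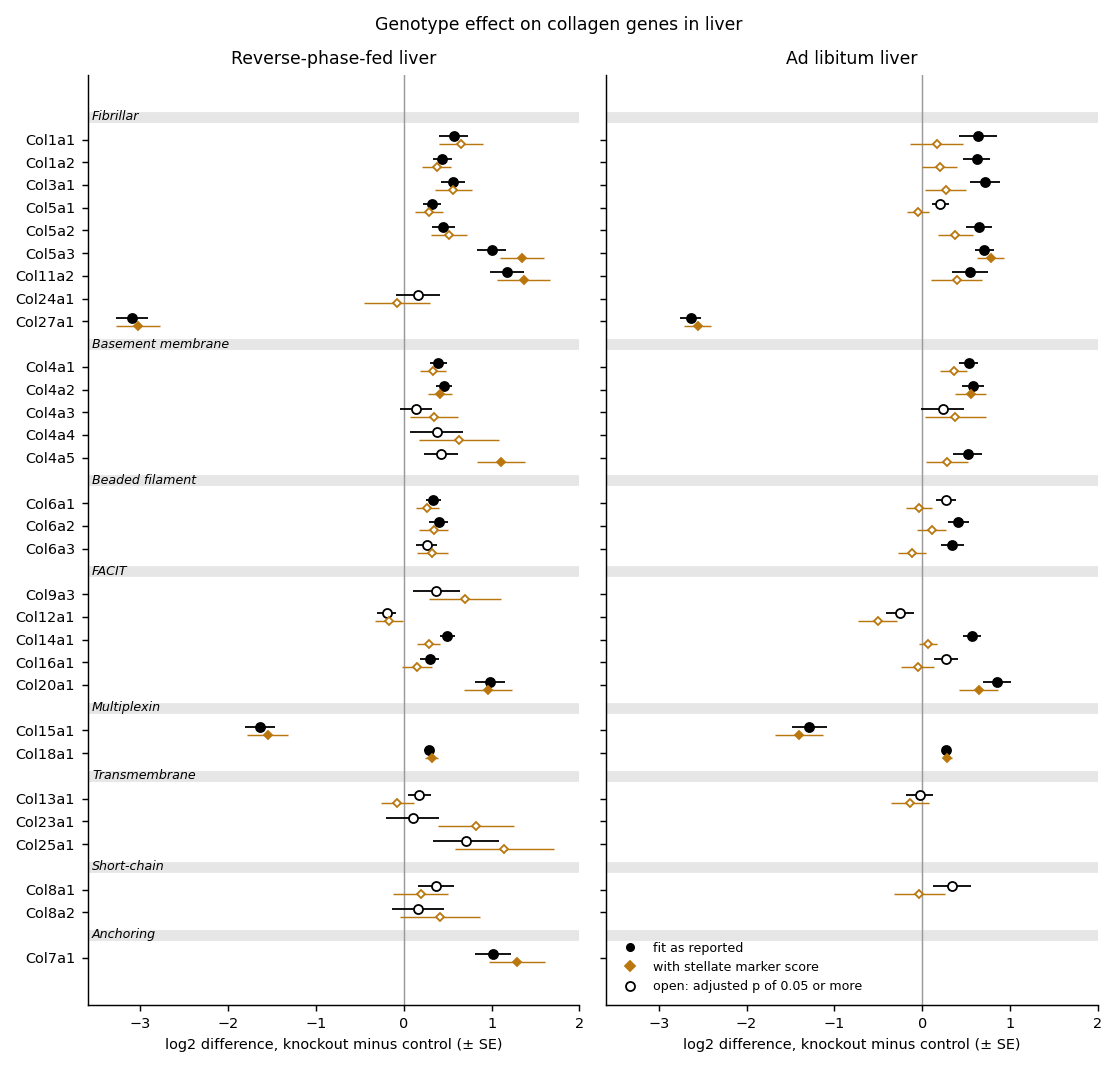
Log2 difference between knockout and control liver (horizontal axis, ± standard error) for each tested collagen, ordered by protein family, under reverse-phase feeding (left) and ad libitum (right). Circles are the difference, filled where called, and orange diamonds the difference after adding the stellate marker score to the fit. Col27a1 (-3.09 ± 0.18 and -2.64 ± 0.12) and Col15a1 lie far to the left of zero, and most other members lie to its right.

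The strongest change belonged to Col27a1, a fibrillar collagen known chiefly from cartilage, whose transcript lies on mm9 chromosome 4, 62876446 to 62996024, plus strand. It spanned 2.29 to 11.5 CPM with a median of 4.87 in knockout livers, against 6.19 to 166 CPM with a median of 42.9 in control livers under reverse-phase feeding, and 4.52 to 33.2 CPM with a median of 14.1 in knockout livers, against 30.2 to 177 CPM with a median of 96 in control livers ad libitum. All 24 knockout livers lay below the control median under each schedule, and 18 and 23 of 24 lay below the lowest control library. The log2 difference was -3.09 ± 0.18 under reverse-phase feeding (adjusted p = 4.55e-18) and -2.64 ± 0.12 ad libitum (adjusted p = 4.11e-22), that is 8.54-fold and 6.22-fold lower. At all 8 times the 3 knockout libraries lay below the 3 controls under both schedules, as did 0.391% of all genes tested under reverse-phase feeding and 0.415% ad libitum. The call held under every alternative run.

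The gap was widest where the control level peaked. Reverse-phase-fed livers at ZT4 had 8.95, 8.39 and 11.5 CPM in the knockout, against 166, 147 and 126 in controls. At ZT16 the knockout had 5.33, 3.72 and 3.98 CPM and controls 16.2, 16.4 and 18.6. Ad libitum the order of the control times turned round: at ZT4 the knockout had 16.3, 14.8 and 12.7 CPM and controls 52.2, 38.5 and 30.2, while at ZT13 the knockout had 9.44, 6.85 and 4.52 and controls 175, 128 and 142. The groups did not overlap at any of these times. A fitted 24 h curve gave the knockout a peak at ZT6.4 ± 2.2 h with a peak-to-trough ratio of 1.56 under reverse-phase feeding (adjusted p = 0.343), against ZT5.7 ± 0.4 h and 7.54 in controls (adjusted p = 2.29e-08). Ad libitum the knockout curve peaked at ZT0.1 ± 0.8 h with a ratio of 2.33 (adjusted p = 0.00062) and the control curve at ZT16.7 ± 0.5 h with a ratio of 3.69 (adjusted p = 2.39e-08).

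In liver, Col27a1 was the 1 collagen called for a rhythm difference between genotypes, under reverse-phase feeding (1 of 30 tested, edgeR adjusted p = 0.016, with 1.48% of all genes called) and ad libitum (1 of 23, adjusted p = 1.54e-06, with 3.31% of all genes called). Under reverse-phase feeding that difference was lost when the libraries of replicate 1, 2 or 3 were left out (adjusted p = 0.194, 0.0615 and 0.307). Ad libitum it held in all of them.

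**Figure D2:**
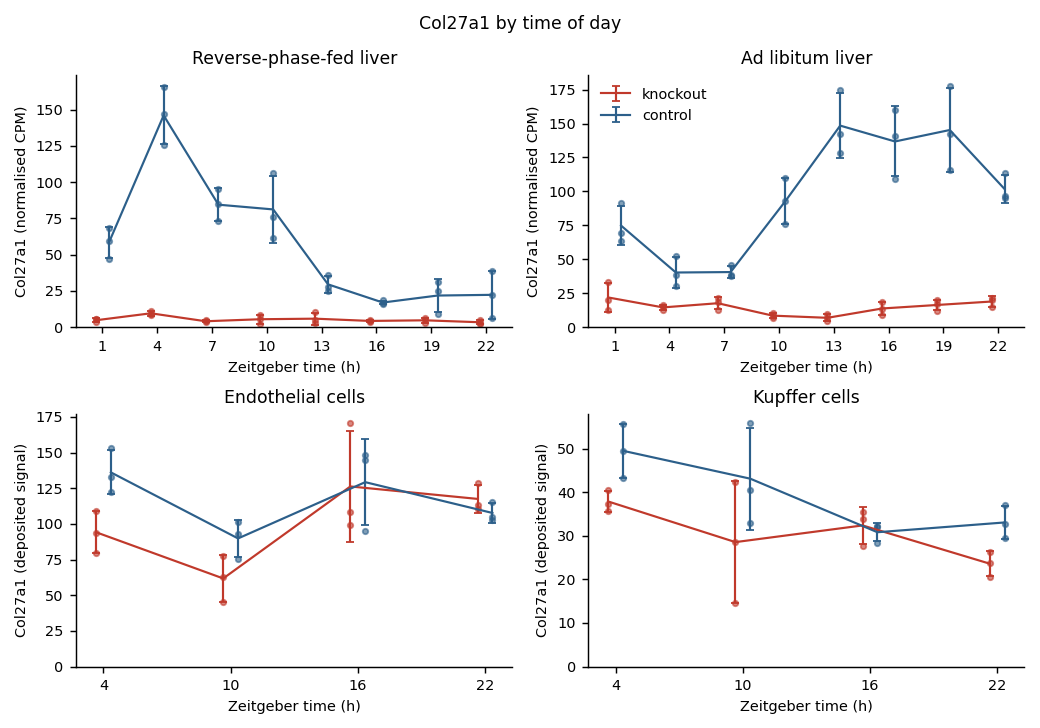
Col27a1 by time of day (ZT, hours) in reverse-phase-fed liver, ad libitum liver, endothelial cells and Kupffer cells. Points are libraries, lines and bars the mean ± SD of 3. Control livers peak at ZT4 under reverse-phase feeding and at ZT13 to ZT19 ad libitum (linear axis from 0, CPM). Knockout livers stay below them at every time. In the isolated cells (deposited signal) the groups overlap at ZT10, ZT16 and, in endothelial cells, ZT22. At ZT4 in both cell types and at ZT22 in Kupffer cells, cells of knockout livers lie below those of control livers. How many of all genes were so separated was not counted, and the genotype difference of Col27a1 was called in neither cell type.

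The promoter of Col27a1 is shown because this gene moved most and is rhythmic in control liver. The RefSeq window of 250 bases before to 50 bases after the transcript start reads as follows on GRCm38.p6, chr4:63215162-63215461, plus strand, 5′ to 3′, with matches to the GC box in capitals.
Col27a1: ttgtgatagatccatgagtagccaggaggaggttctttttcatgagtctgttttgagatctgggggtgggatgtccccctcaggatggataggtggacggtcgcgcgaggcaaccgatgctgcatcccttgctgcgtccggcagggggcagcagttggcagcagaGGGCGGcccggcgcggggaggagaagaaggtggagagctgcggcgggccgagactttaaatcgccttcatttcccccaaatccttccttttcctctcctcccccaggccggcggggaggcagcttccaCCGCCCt

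Both strands of this window were searched for the nuclear receptor half-site AGGTCA, which REV-ERB and its competitor ROR are known to bind, and for the E-box CACGTG, the D-box TTANGTAA, the CCAAT box CCAAT and the GC box GGGCGG. It held 2 GC boxes and none of the other letters, which says nothing of binding elsewhere or with other letters. Of 32851 mouse promoter windows, 35.7% hold a GC box, 16.3% AGGTCA, 7.15% CACGTG, 2.32% TTANGTAA and 37.4% CCAAT. Of the 35 collagen genes in the table, 22 held a GC box, 8 AGGTCA, 13 CCAAT and 0 CACGTG or TTANGTAA.

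Most of the other tested fibrillar collagens rose. Under reverse-phase feeding 7 of 9 tested fibrillar chains rose, and ad libitum 6 of 8, with Col27a1 the 1 that fell under each. Col1a1 and Col1a2, the chains of type I collagen, were low in these livers. Col1a1 spanned 1.53 to 13.1 CPM with a median of 6.26 in knockout livers, against 2.0 to 7.72 CPM with a median of 4.41 in control livers under reverse-phase feeding, a log2 difference of 0.57 ± 0.16 (adjusted p = 0.00602). Ad libitum it spanned 2.17 to 27.6 CPM with a median of 9.19 in knockout livers, against 2.06 to 15.1 CPM with a median of 5.73 in control livers, a difference of 0.64 ± 0.22 (adjusted p = 0.0253). The ranges overlapped widely, and the groups overlapped at every time ad libitum. Col1a2 had 7.78 to 22.7 CPM with a median of 12.8 in knockout livers, against 6.21 to 14.3 CPM with a median of 9.35 in control livers under reverse-phase feeding (0.44 ± 0.11, adjusted p = 0.00141), and 6.51 to 37.9 CPM with a median of 16.8 in knockout livers, against 5.14 to 21.1 CPM with a median of 11.5 in control livers ad libitum (0.62 ± 0.15, adjusted p = 0.00138). For both type I chains the knockout median was the higher under each schedule, and the ranges overlapped. Col3a1, the type III chain of the fine reticular fibres of liver, had 9.22 to 54.2 CPM with a median of 22.7 in knockout livers, against 9.5 to 24.3 CPM with a median of 19.1 in control livers under reverse-phase feeding (0.56 ± 0.14, adjusted p = 0.00158). Ad libitum it had 15.7 to 121 CPM with a median of 40.3 in knockout livers, against 11.6 to 46.8 CPM with a median of 26.4 in control livers (0.71 ± 0.17, adjusted p = 0.00139). Its highest knockout values ad libitum came at ZT7, with 121, 53.9 and 83.5 CPM in the knockout and 26.5, 46.3 and 46.8 CPM in controls.

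Type V collagen, which starts fibrils and sets their width, has 3 chains here. Col5a3 had the largest difference of the 3. It spanned 21.1 to 101 CPM with a median of 40.3 in knockout livers, against 9.997 to 51.7 CPM with a median of 20.02 in control livers under reverse-phase feeding, and 20.9 to 91.9 CPM with a median of 47.1 in knockout livers, against 11.6 to 51.3 CPM with a median of 30.3 in control livers ad libitum. All 24 reverse-phase-fed knockout livers and 23 of 24 ad libitum lay above the control median, and the knockout libraries were all higher at 5 of 8 times under reverse-phase feeding and 6 of 8 ad libitum, counts that 2.63% and 1.59% of all genes reached. The log2 differences were 1.0 ± 0.16 (adjusted p = 4.77e-06) and 0.71 ± 0.11 (adjusted p = 1.69e-06). Col5a1 had 4.22 to 11.9 CPM with a median of 6.63 in knockout livers, against 3.25 to 8.82 CPM with a median of 5.51 in control livers under reverse-phase feeding (0.32 ± 0.10, adjusted p = 0.0184). Ad libitum it had 3.99 to 17.3 CPM with a median of 8.79 in knockout livers, against 4.88 to 12.8 CPM with a median of 7.32 in control livers and missed the threshold (0.21 ± 0.10, adjusted p = 0.105). Col5a2 had 0.987 to 4.75 CPM with a median of 2.35 in knockout livers, against 0.886 to 2.78 CPM with a median of 1.97 in control livers under reverse-phase feeding (0.45 ± 0.13, adjusted p = 0.0090), and 2.0 to 7.35 CPM with a median of 3.06 in knockout livers, against 1.03 to 4.0 CPM with a median of 2.38 in control livers ad libitum (0.65 ± 0.14, adjusted p = 0.00044). For Col5a1 and Col5a2 as well the knockout median was the higher under each schedule. Col11a2, a type XI chain known from cartilage, was barely above the limit of the test, at 0.359 to 2.8 CPM with a median of 0.942 in knockout livers, against 0.0515 to 1.3 CPM with a median of 0.438 in control livers under reverse-phase feeding (1.18 ± 0.20, adjusted p = 5.02e-06) and 0.364 to 2.01 CPM with a median of 0.909 in knockout livers, against 0 to 1.38 CPM with a median of 0.607 in control livers ad libitum (0.54 ± 0.21, adjusted p = 0.0435). The ad libitum call of Col11a2 was lost in 6 of 11 alternatives, among them leaving out each replicate and leaving out the libraries that stood apart. Col24a1, a fibrillar chain known from bone, was tested under reverse-phase feeding and did not pass (0.16 ± 0.25, adjusted p = 0.685). Leaving out 1 replicate number ended the reverse-phase calls of Col1a1, Col5a1 and Col5a2 (without replicate 1 or 3) and of Col3a1 (without replicate 1), and the ad libitum call of Col1a1 (without any of the 3).

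Among basement membrane chains, Col4a1 and Col4a2 rose under both schedules and Col4a5 ad libitum, so that 2 of 5 and 3 of 4 tested members rose and 0 fell. Col4a1 and Col4a2 pair in the common type IV collagen of vessels and sinusoids. Their genes lie head to head on mm9, Col4a1 on chromosome 8, 11198423 to 11312826, minus strand, and Col4a2 on chromosome 8, 11312805 to 11449287, plus strand, and the rows overlap at their starts on opposite strands. Whether counting used the strand is not given in the sources used here, so reads in that overlap could be assigned to either. Col4a1 spanned 14.2 to 34.9 CPM with a median of 23.3 in knockout livers, against 11.3 to 27.7 CPM with a median of 17.1 in control livers under reverse-phase feeding (0.39 ± 0.10, adjusted p = 0.00158), and 12.9 to 41.7 CPM with a median of 29.2 in knockout livers, against 7.54 to 39.99 CPM with a median of 16.6 in control livers ad libitum (0.53 ± 0.11, adjusted p = 0.000173). The knockout libraries were all above the controls at 4 of 8 times under each schedule, a count that 4.58% of all genes reached under reverse-phase feeding and 5.08% ad libitum. Col4a2 spanned 11.5 to 30.9 CPM with a median of 18.8 in knockout livers, against 7.2 to 19.4 CPM with a median of 14.3 in control livers under reverse-phase feeding (0.46 ± 0.09, adjusted p = 0.000114), and 14.1 to 44 CPM with a median of 27.7 in knockout livers, against 7.75 to 32.7 CPM with a median of 17.2 in control livers ad libitum (0.58 ± 0.12, adjusted p = 0.000238). For both chains the highest library was a knockout liver under each schedule. Col4a5, a chain known from kidney basement membrane, had 1.3 to 6.87 CPM with a median of 2.75 in knockout livers, against 0.298 to 4.15 CPM with a median of 2.06 in control livers ad libitum (0.52 ± 0.17, adjusted p = 0.0154). Under reverse-phase feeding it had 0.715 to 6.12 CPM with a median of 2.2 in knockout livers, against 0.61 to 3.64 CPM with a median of 1.41 in control livers (0.42 ± 0.19, adjusted p = 0.0954), which missed the threshold. That value depended on the setting: Col4a5 was called with a replicate block (0.48), without replicate 2 (0.93) and with the stellate marker score in the fit (1.11), and stood at 0.14 without replicate 3. Col4a3 missed it under both schedules (0.14 ± 0.18 and 0.23 ± 0.24), as did Col4a4 under reverse-phase feeding (0.38 ± 0.30). The call of Col4a1 under reverse-phase feeding was lost without replicate 1, and that of Col4a5 ad libitum without replicate 1 or 3.

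Because Col4a1 and Col4a2 moved together, the stretch that their promoter windows share is shown. The shared 78 bases lie on GRCm38.p6 at chr8:11312777-11312854, plus strand, 5′ to 3′, with the single GC box in capitals.
Col4a1 and Col4a2: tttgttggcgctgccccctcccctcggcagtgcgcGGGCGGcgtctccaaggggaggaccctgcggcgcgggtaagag

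Type VI collagen, the microfilament of interstitial matrix, has the chains Col6a1, Col6a2 and Col6a3 here, the only beaded filament members with enough reads to test, and 2 of 3 rose under each schedule. Col6a1 spanned 3.87 to 12 CPM with a median of 6.91 in knockout livers, against 3.9 to 8.59 CPM with a median of 5.46 in control livers under reverse-phase feeding (0.34 ± 0.09, adjusted p = 0.00292). Ad libitum it spanned 3.73 to 14.1 CPM with a median of 7.3 in knockout livers, against 3.6 to 9.69 CPM with a median of 6.6 in control livers (0.27 ± 0.11, adjusted p = 0.0695), short of the threshold. Col6a2 spanned 1.58 to 6.39 CPM with a median of 3.62 in knockout livers, against 1.47 to 4.37 CPM with a median of 2.63 in control livers under reverse-phase feeding (0.40 ± 0.11, adjusted p = 0.00451), and 1.65 to 5.96 CPM with a median of 3.52 in knockout livers, against 1.69 to 4.23 CPM with a median of 2.82 in control livers ad libitum (0.41 ± 0.12, adjusted p = 0.00756). Col6a3 had 1.85 to 8.75 CPM with a median of 5.78 in knockout livers, against 2.47 to 7.26 CPM with a median of 4.63 in control livers under reverse-phase feeding (0.26 ± 0.12, adjusted p = 0.0926), which missed the threshold. Ad libitum it had 3.91 to 14.9 CPM with a median of 8.12 in knockout livers, against 3.31 to 10.5 CPM with a median of 6.54 in control livers (0.34 ± 0.13, adjusted p = 0.0436), a call lost in 6 of 12 alternatives and turned to -0.12 with the stellate marker score in the fit. The groups overlapped for all 3 chains. The calls of Col6a1 (without replicate 1) and Col6a2 (without replicate 3) under reverse-phase feeding, and of Col6a2 ad libitum (without replicate 2 or 3), did not hold when those libraries were left out.

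Fibril-associated collagens rose in 3 of 5 tested members under reverse-phase feeding and 2 of 4 ad libitum, and 0 fell. Col14a1, which binds the surface of fibrils, was the most abundant of them per length. It spanned 24 to 62.8 CPM with a median of 37.7 in knockout livers, against 19.2 to 42.6 CPM with a median of 27.3 in control livers under reverse-phase feeding (0.50 ± 0.09, adjusted p = 1.71e-05), and 27.4 to 75.8 CPM with a median of 56.4 in knockout livers, against 20.4 to 67.4 CPM with a median of 36.4 in control livers ad libitum (0.57 ± 0.11, adjusted p = 3.95e-05). In 23 of 24 and 22 of 24 knockout livers it lay above the control median. Col20a1, a lesser known member of the family, had 0.745 to 4.49 CPM with a median of 1.91 in knockout livers, against 0.424 to 2.06 CPM with a median of 1.11 in control livers under reverse-phase feeding (0.98 ± 0.18, adjusted p = 1.80e-05). Ad libitum it had 1.92 to 7.24 CPM with a median of 3.46 in knockout livers, against 0.442 to 4.61 CPM with a median of 2.09 in control livers (0.85 ± 0.16, adjusted p = 3.42e-05). The knockout libraries of Col20a1 were all above the controls at 4 of 8 times under each schedule, as 4.58% and 5.08% of all genes were at 4 or more. Col16a1 had 1.48 to 4.37 CPM with a median of 2.96 in knockout livers, against 1.16 to 3.46 CPM with a median of 2.35 in control livers under reverse-phase feeding (0.30 ± 0.11, adjusted p = 0.0397), a call lost without replicate 3 and with time as a factor. Ad libitum its difference was 0.27 ± 0.14 (adjusted p = 0.149). Col12a1, which coats fibrils under tension, had differences of -0.20 ± 0.10 and -0.25 ± 0.16, neither called.

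The 2 multiplexins moved in opposite directions. Col18a1 rose and Col15a1 fell under both schedules. Col18a1, on mm9 chromosome 10, 76514924 to 76576450, minus strand, was the most abundant collagen of liver per length and spanned 654 to 1093 CPM with a median of 895 in knockout livers, against 524 to 963 CPM with a median of 723 in control livers under reverse-phase feeding. Ad libitum it spanned 706 to 1092 CPM with a median of 877 in knockout livers, against 538 to 904 CPM with a median of 731 in control livers. The rise was small: 0.28 ± 0.05 on the log2 scale (adjusted p = 1.23e-05) with 22 of 24 knockout livers above the control median, and 0.27 ± 0.04 (adjusted p = 7.84e-08) with 23 of 24. The knockout libraries were all higher at 4 of 8 times under reverse-phase feeding and 6 of 8 ad libitum, counts reached by 4.58% and 1.59% of all genes. Col15a1, on mm9 chromosome 4, 47220884 to 47326037, plus strand, spanned 0.306 to 5.4 CPM with a median of 2.29 in knockout livers, against 2.7 to 13 CPM with a median of 7.16 in control livers under reverse-phase feeding, with no overlap between genotypes at any of the 8 times. The same held for 0.391% of all genes tested in the direction of lower knockout levels. Ad libitum it spanned 0.60 to 11.4 CPM with a median of 3.46 in knockout livers, against 1.88 to 21 CPM with a median of 7.5 in control livers, with no overlap at 4 of 8, a count that 4.58% of all genes reached in the direction of lower knockout levels. The log2 differences were -1.64 ± 0.17 (adjusted p = 9.52e-11) and -1.28 ± 0.20 (adjusted p = 1.70e-06). At ZT7 under reverse-phase feeding, for example, it had 4.97, 2.72 and 5.4 CPM in the knockout and 12.5, 11.8 and 7.91 in controls. Col15a1 and Col27a1 were the only members called lower in either liver table, and the promoter window of Col15a1 held none of the 5 motifs.

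**Figure D3:**
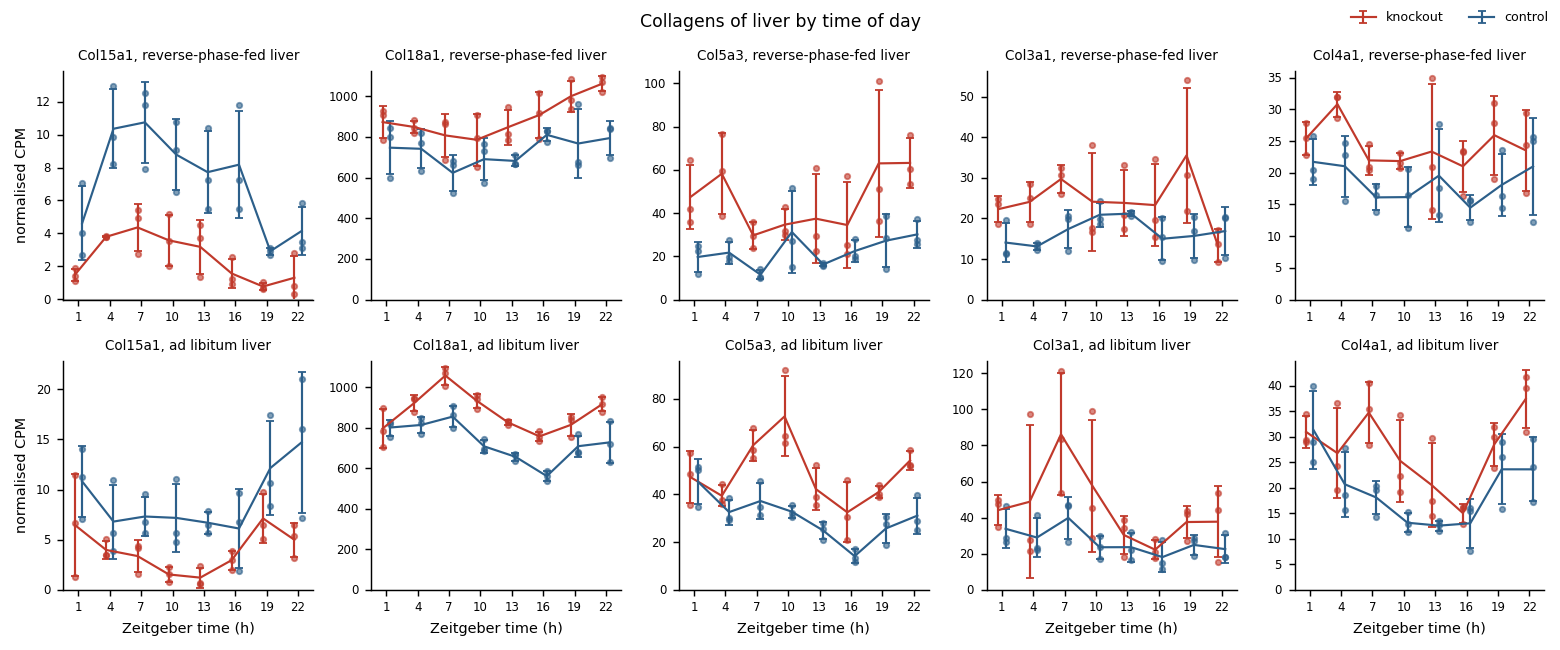
Level by time of day (ZT, hours) of Col15a1, Col18a1, Col5a3, Col3a1 and Col4a1 in reverse-phase-fed liver (top row) and ad libitum liver (bottom row), in CPM on axes of their own. Points are libraries, lines and bars the mean ± SD of 3. Knockout livers lie below controls for Col15a1 and above them at most times for Col18a1 and Col5a3, while the groups overlap more for Col3a1 and Col4a1.

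Of the remaining members, Col7a1, the anchoring fibril of skin, rose under reverse-phase feeding at a very low level, with 0.223 to 1.81 CPM with a median of 0.607 in knockout livers, against 0.0985 to 0.651 CPM with a median of 0.339 in control livers (1.02 ± 0.21, adjusted p = 0.000134). It was not tested ad libitum, where its highest value in any library was 1.96 CPM. The short-chain network chains passed in 0 of 2 tested under reverse-phase feeding (Col8a1 0.37 ± 0.20, Col8a2 0.16 ± 0.30) and 0 of 1 ad libitum (Col8a1 0.34 ± 0.22), and the transmembrane chains in 0 of 3 (Col13a1 0.18 ± 0.13, Col23a1 0.10 ± 0.30, Col25a1 0.71 ± 0.37) and 0 of 1 (Col13a1 -0.03 ± 0.15). None of these 5 had an unadjusted edgeR p below 0.05. 14 members under reverse-phase feeding and 21 ad libitum did not pass the filter on low counts, and their highest value in any library was 0.76 CPM (Col6a6) and 1.96 CPM (Col7a1). 12 members were tested in none of the 4 tables: Col2a1, Col4a6, Col6a4, Col6a5, Col6a6, Col9a1, Col9a2, Col11a1, Col19a1, Col22a1, Col26a1 and Col28a1. Col26a1 was at 0 in every library.

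Markers of stellate and endothelial cells rose in the same livers. Of 13 stellate cell markers, 9 rose under reverse-phase feeding and 10 ad libitum, and 0 fell. Beside this and the marker counts below, 12.7% of all genes were called higher and 14.2% lower under reverse-phase feeding. Ad libitum these shares were 13.7% and 13.5%. Their summed level was 249 to 389 CPM in knockout livers (median 333) and 203 to 360.2 CPM in control livers (median 258) under reverse-phase feeding, and 218 to 380.0 (median 309) against 152 to 362 (median 230.3) ad libitum. Lrat, which esterifies vitamin A for storage, rose by 0.52 ± 0.10 and 0.64 ± 0.15, and the secreted protein gene Reln by 0.46 ± 0.07 and 0.54 ± 0.08. Of 17 endothelial markers, 8 and 12 rose and 0 fell, with sums of 234 to 406 against 199 to 387 CPM under reverse-phase feeding and 207 to 389 against 176 to 390.2 CPM ad libitum. Of the portal fibroblast and smooth muscle markers, 4 of 9 (reverse-phase) and 5 of 8 (ad libitum) rose and 1 fell under each schedule. Their summed level did not rise. Its median was 44.8 CPM in knockout and 63.9 CPM in control livers under reverse-phase feeding, and 39.7 and 40.8 CPM ad libitum. Kupffer markers were called by edgeR in 0 of 12 under each schedule, summing to 319 to 689 against 376 to 661 CPM and 341 to 653 against 347 to 659.7 CPM. Hepatocyte markers rose in 4 and 7 of 12 and fell in 1 and 1, while their summed level had a median of 128554 against 141083 CPM and 145050.0 against 157736 CPM. Cholangiocyte markers rose in 2 of 7 and 1 of 6, and other leukocyte markers were called in 0 of 10 and 0 of 5. The ad libitum cholangiocyte count lies near the share of all genes called higher. No marker of these lists was at 0 in every liver library. The part of the endothelial, hepatocyte and portal markers in the collagen differences was not tested.

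The collagen differences were also fitted with the stellate marker score, the mean log2 CPM of the 13 markers, as a covariate. Given here on log2(CPM + 1), a scale other than the edgeR log2 CPM of the fit, the score was 3.88 ± 0.0981 in knockout and 3.61 ± 0.176 in control livers under reverse-phase feeding. Ad libitum it was 3.77 ± 0.191 and 3.43 ± 0.287 (SD, n = 24 each). With it, 7 members were higher and 2 lower under reverse-phase feeding, and 4 higher and 2 lower ad libitum, while 13.9% and 15.9% of all genes were called. The median difference of tested members was 0.36 and 0.17. Col3a1 stood at 0.56 ± 0.21 and 0.27 ± 0.23, Col14a1 at 0.28 ± 0.13 and 0.06 ± 0.10, and Col1a1 at 0.65 ± 0.25 and 0.17 ± 0.30, none of them called. The other calls lost with the score were those of Col1a2, Col4a1, Col5a2 and Col6a2 under both schedules, of Col5a1, Col6a1 and Col16a1 under reverse-phase feeding, and of Col4a5, Col6a3 and Col11a2 ad libitum, with Col6a3 also changing sign. Under reverse-phase feeding the differences of most of these stayed close in size while their standard errors grew: Col1a2 had 0.38 ± 0.16 with the score and 0.44 ± 0.11 without, Col5a2 had 0.51 ± 0.21 with the score and 0.45 ± 0.13 without, Col6a2 had 0.34 ± 0.17 with the score and 0.40 ± 0.11 without, and Col4a1 0.33 ± 0.15 and 0.39 ± 0.10, Col5a1 0.29 ± 0.16 and 0.32 ± 0.10, Col6a1 0.27 ± 0.14 and 0.34 ± 0.09, whereas Col16a1 had 0.15 ± 0.17 and 0.30 ± 0.11. Ad libitum they were smaller: Col1a2 had 0.20 ± 0.20 and 0.62 ± 0.15, Col4a1 had 0.36 ± 0.15 and 0.53 ± 0.11, Col4a5 had 0.28 ± 0.24 and 0.52 ± 0.17, Col5a2 had 0.38 ± 0.20 and 0.65 ± 0.14, Col6a2 had 0.11 ± 0.16 and 0.41 ± 0.12, and Col11a2 0.39 ± 0.29 and 0.54 ± 0.21. Col27a1 (-3.03 ± 0.25 and -2.55 ± 0.15), Col15a1 (-1.55 ± 0.23 and -1.41 ± 0.27), Col18a1 (0.32 ± 0.07 and 0.29 ± 0.05), Col5a3 (1.34 ± 0.25 and 0.78 ± 0.15), Col20a1 and Col4a2 kept their calls under both schedules, there and in every other alternative run. The score shares libraries with the collagens and its part in the differences was not tested further.

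No collagen's genotype difference was shown to depend on feeding. In a joint edgeR fit of the 96 liver libraries, 0 of 26 tested members passed for a genotype difference that changed with schedule, 2 had an unadjusted p below 0.05, DESeq2 also called 0, and 0.207% of all genes were called. The 2 were Col11a2 (reverse-phase minus ad libitum 0.62 ± 0.29, adjusted p = 0.655) and Col27a1 (-0.45 ± 0.21, adjusted p = 0.661). The rhythm of several collagens differed between the schedules. The fitted rhythm differed between reverse-phase and ad libitum feeding for 10 of 26 members in the knockout (49.0% of all genes called) and 8 of 26 in controls (53.6%). Col27a1, Col15a1, Col18a1, Col13a1 and Col5a3 were called in both genotypes, Col3a1, Col5a1, Col6a1, Col7a1 and Col25a1 in the knockout and Col4a1, Col8a1 and Col14a1 in controls. The knockout call of Col27a1 (adjusted p = 0.0248) was lost without replicate 1 (0.29) or 2 (0.197), and the control call of Col4a1 (0.0233) with no filter (0.0502) and without replicate 2 (0.232) or 3 (0.183). The 2 schedules were deposited as separate tables, so feeding and table cannot be told apart here.

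Within a schedule, rhythms were called for a minority of the tested members. Under reverse-phase feeding a 24 h curve was called for 4 of 30 members in the knockout (36.8% of all genes) and 2 of 30 in controls (41.2%). In the knockout these were Col12a1 (peak ZT4.2 ± 0.8 h, peak-to-trough ratio 2.05), Col15a1 (ZT8.0 ± 0.6 h, 4.82), Col18a1 (ZT20.5 ± 1.0 h, 1.29) and Col7a1 (ZT1.6 ± 1.0 h, 2.64). In controls they were Col15a1 (ZT8.7 ± 0.8 h, 2.87) and Col27a1. Ad libitum 8 of 23 were called in the knockout (44.1% of all genes) and 9 of 23 in controls (48.1%). Col15a1 peaked at ZT22.9 ± 0.8 h in the knockout with a ratio of 4.09, and at ZT22.1 ± 1.3 h in controls with a ratio of 2.09. Col18a1 peaked at ZT6.1 ± 0.9 h in the knockout (ratio 1.24) and ZT3.8 ± 0.6 h in controls (ratio 1.38). Col13a1, Col4a1, Col5a1 and Col27a1 were called in both genotypes, Col3a1 (ZT5.7 ± 1.0 h, 2.49) and Col6a1 in the knockout, and Col14a1, Col4a2 and Col5a3 (ZT3.7 ± 0.8 h, 2.1) in controls. Apart from Col27a1, no member's rhythm was called different between genotypes, so a rhythm called in 1 genotype is not shown to be absent in the other. Without replicate 1 or 3 the ad libitum knockout count fell to 5 of 23.

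Levels per kilobase of transcript, the scale on which genes can be set beside each other, were ordered within each table. In liver Col18a1 led by far, with a mean of 159.7 CPM per kilobase in knockout and 131 in control livers under reverse-phase feeding, and 157 and 130.4 ad libitum. It made up 79.9% and 74.7% of all collagen per kilobase. Next under reverse-phase feeding came Col5a3 (7.65 and 3.75) and Col14a1 (6.07 and 4.3), and ad libitum Col27a1 (1.96 and 12.9) and Col14a1 (8.46 and 5.79). In endothelial cells Col4a1 led with 402 signal per kilobase in those of knockout and 358 in those of control livers. Next came Col14a1 (372 and 367), Col4a2 (208 and 181) and Col13a1 (177 and 165). The endothelial libraries also held stellate markers, and which cells gave their collagen signal was not tested. In Kupffer cells the leading collagens were the following: Col14a1 had 59.1 and 58.4, Col18a1 48.8 and 38.7, and Col4a1 21.7 and 20.8. The tables were normalised separately, so levels are not compared between them.

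**Figure D4:**
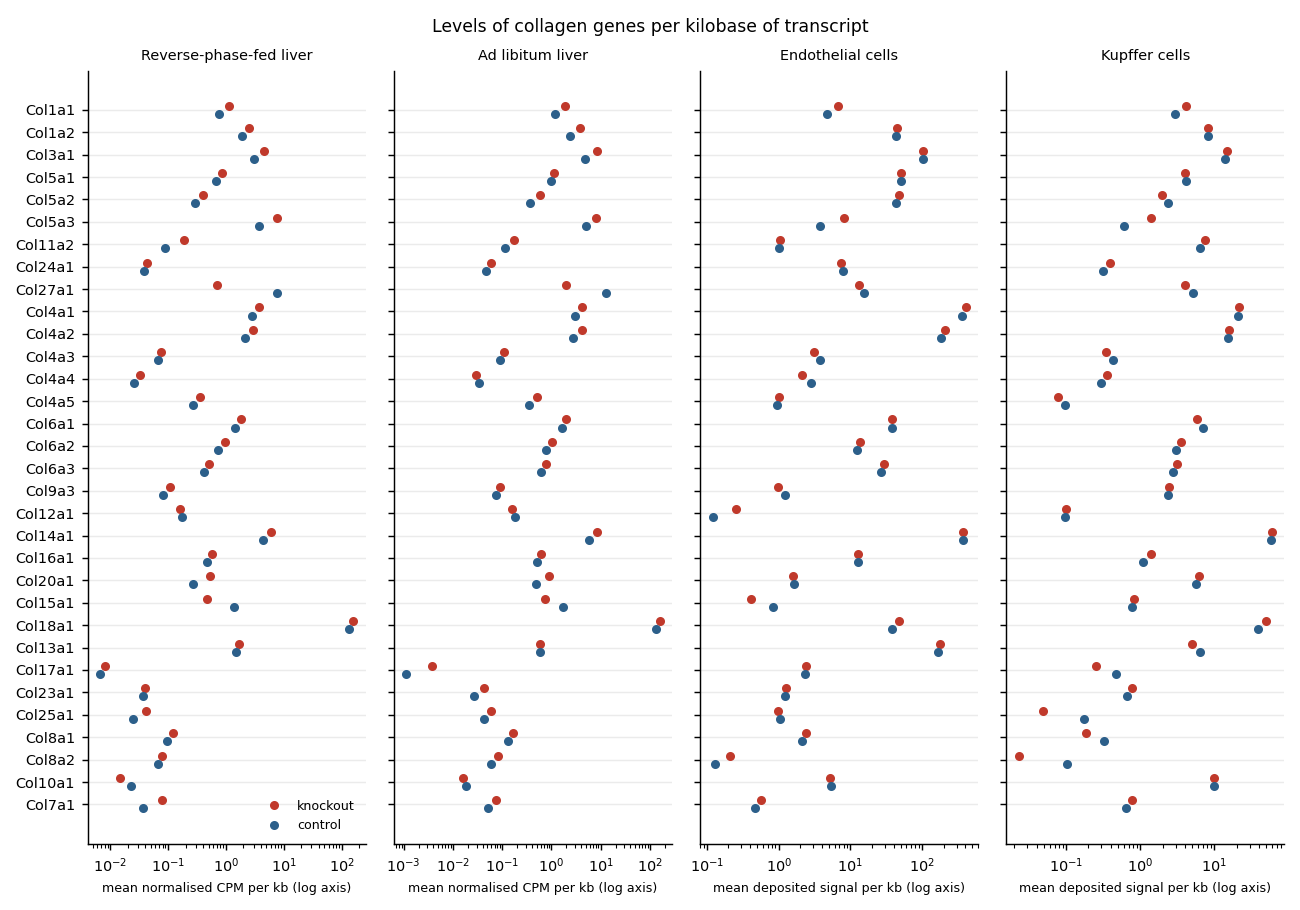
Mean level per kilobase of transcript (log axis) of the 32 collagens tested in at least 1 table, in knockout and control samples of each of the 4 tables. Liver panels are in CPM per kilobase and cell panels in deposited signal per kilobase. Col18a1 tops both livers, and Col4a1, Col14a1, Col4a2 and Col13a1 top the endothelial libraries, which also held stellate markers.

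In endothelial cells no collagen was called for a difference in mean level between genotypes. With limma on log2(signal + 1), 0 of 25 tested members were called and 2 had an unadjusted p below 0.05; over all genes 4 were called (0.0319%) and 676 had an unadjusted p below 0.05. The median log2 difference of the 25 was 0.03, beside -0.01 over all genes. The type IV chains were high in these cells. Col4a1 spanned 1907 to 4102 signal with a median of 2450.0 in cells of knockout livers, against 1492 to 3542 signal with a median of 2255 in cells of control livers (0.19 ± 0.09, adjusted p = 0.918). Col4a2 spanned 957 to 2151 signal with a median of 1212 in cells of knockout livers, against 750.2 to 1870.1 signal with a median of 1113 in cells of control livers (0.22 ± 0.11, adjusted p = 0.927). Col14a1 had medians of 2304 and 2295 (0.04 ± 0.14), Col3a1 555 and 483 (0.02 ± 0.20), Col5a1 416 and 332 (0.02 ± 0.24), and Col5a2 309 and 262 (0.14 ± 0.11). The other chains of the core set had medians in cells of knockout against control livers of 33.1 and 22.2 for Col1a1, 212 and 196 for Col1a2, 148 and 142 for Col6a1, 40.3 and 43 for Col6a2, and 305 and 273 for Col6a3. These log2 differences lay between 0.005 and 0.52.

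None of the members called for the genotype difference in whole liver was called for it in endothelial cells. Of these, Col7a1, Col11a2, Col15a1 and Col20a1 did not pass the filter on low values there and were not tested. Col5a3 spanned 14.8 to 174 signal with a median of 33.4 in cells of knockout livers, against 5.65 to 65.5 signal with a median of 13.2 in cells of control livers, a log2 difference of 1.09 ± 0.35 with an unadjusted limma p of 0.00562 and an adjusted p of 0.64. Col18a1 spanned 96.9 to 797 signal with a median of 186 in cells of knockout livers, against 69.4 to 611 signal with a median of 164 in cells of control livers (0.39 ± 0.35, adjusted p = 0.991). 1 library from a knockout liver at ZT22 had the highest value of both genes, 174 for Col5a3 and 797 for Col18a1, and also the highest summed hepatocyte markers, 139471 signal. That sum spanned 10309.7 to 139471 in cells of knockout livers (median 25865) and 13189.9 to 69507 in those of control livers (median 34836), and its part in these values was not tested. Stellate markers were present in this preparation too, summing to 10723 to 23279 and 10648 to 18039. Col27a1 had 45 to 171 signal with a median of 104 in cells of knockout livers, against 75.5 to 153 signal with a median of 110.2 in cells of control livers (-0.25 ± 0.13, unadjusted p = 0.0593). Col15a1 was not tested in either isolated cell type because its signal was below 10 in every library of both.

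By time of day, Col4a1 in endothelial cells was the 1 member of 25 whose rhythm differed between genotypes (limma adjusted p = 0.0481, with 2.04% of all genes called). At ZT4 it had 2371, 3209 and 2856 signal in cells of knockout livers and 3542, 2886 and 2856 in those of control livers. At ZT16 it had 2476, 2424 and 2254 against 1492, 1604 and 1702, and at ZT22 3057, 2147 and 4102 against 1859.6, 1989.9 and 2147. The groups overlapped at ZT4 and ZT10, were apart at ZT16 and met at 1 value at ZT22. The call was marginal: it was lost with no filter on low values (adjusted p = 0.0705), with the replicate number as a block (0.0592), with a stellate marker covariate (0.0893) and without replicate 1, 2 or 3 (0.288, 0.175 and 0.342), and was 0.0225 without the 3 knockout ZT22 libraries that stood apart. A 24 h curve was called in cells of knockout livers for Col13a1 (peak ZT18.3 ± 0.8 h, ratio 2.2) and Col27a1 (ZT20.5 ± 1.0 h, 2.03), 2 of 25 with 13.2% of all genes called, and 4 of 25 without the libraries that stood apart. In cells of control livers it was called for Col4a1 (ZT5.6 ± 0.7 h, 2.05) and Col4a2 (ZT6.4 ± 0.7 h, 2.27), 2 of 25 with 6.13% of all genes called. 4 times of day give a 24 h curve few points, and these counts fell to 0 without replicate 1.

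**Figure D5:**
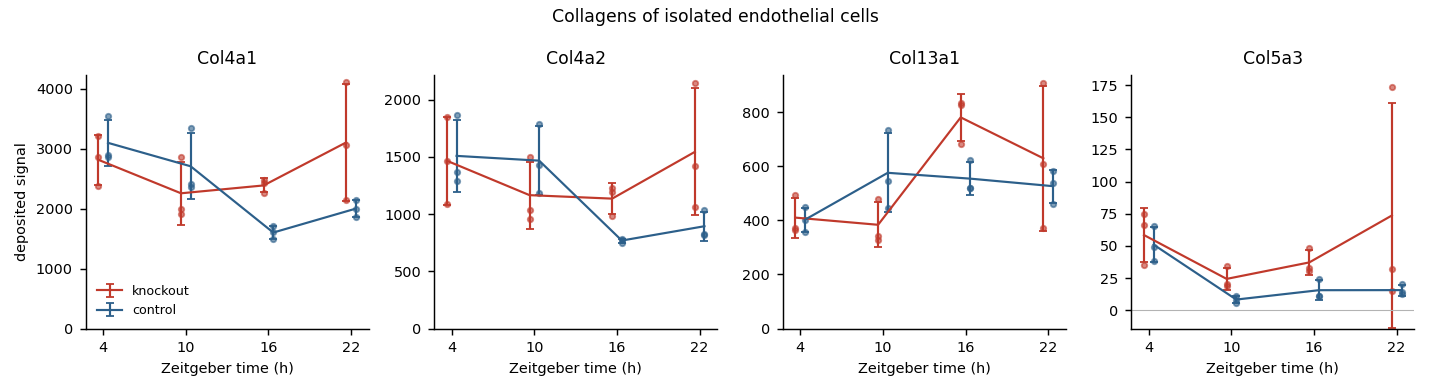
Deposited signal by time of day (ZT, hours) of Col4a1, Col4a2, Col13a1 and Col5a3 in endothelial cells of knockout and control livers. Points are libraries, lines and bars the mean ± SD of 3. Col4a1 of control livers is highest at ZT4 and ZT10 and lowest at ZT16, where cells of knockout livers lie above it. The 3 knockout libraries at ZT22 are among those that stood apart.

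In Kupffer cells no collagen passed any test. For the genotype difference limma called 0 of 21 with 1 at an unadjusted p below 0.05, and 3 of all genes (0.0244%, with 488 at an unadjusted p below 0.05). The 1 was Col27a1, with 14.6 to 42.4 signal with a median of 31.3 in cells of knockout livers, against 28.4 to 55.9 signal with a median of 35 in cells of control livers (-0.36 ± 0.14, unadjusted p = 0.0189, adjusted p = 1.0). The median log2 difference of the 21 was 0.08, beside 0.000173 over all genes. Col14a1 had 209.7 to 747 signal with a median of 352 in cells of knockout livers, against 136 to 614 signal with a median of 354 in cells of control livers, and Col4a1 61.2 to 364 signal with a median of 119 in cells of knockout livers, against 32.1 to 326 signal with a median of 121 in cells of control livers. Col18a1 had 67.3 to 719 signal with a median of 153 in cells of knockout livers, against 38.1 to 625 signal with a median of 191 in cells of control livers, where the summed hepatocyte markers spanned 13754 to 93641 and 13778 to 83836. Their part in it was not tested. Stellate markers summed to 1441 to 4887 in Kupffer libraries of knockout livers and 1133 to 3799 in those of control livers. Endothelial markers summed to 8188 to 13818.5 and 8239 to 14342. Among them Cdh5 had the highest mean, 5945 in cells of knockout and 6255 in cells of control livers, while Kdr averaged 316 and 388. Which cells gave the collagen signal of these libraries was not tested. Medians of Col1a1, Col1a2, Col3a1, Col4a2, Col5a1, Col5a2, Col6a1, Col6a2 and Col6a3 lay between 11.3 and 78.4 signal in cells of knockout livers and between 9.63 and 83.8 in those of control livers. A 24 h curve was called for 0 of 21 in cells of knockout livers (4 at an unadjusted p below 0.05, 1.81% of all genes called) and 0 of 21 in those of control livers (2, 1.96%). The rhythm differed between genotypes for 0 of 21, with 0 at an unadjusted p below 0.05 and 0 of all genes called.

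Other genes of collagen handling were read in the same tests. Enzymes and chaperones of collagen synthesis mostly did not pass: of those tested, 6 of 28 rose and 1 fell with reverse-phase meals and 7 of 24 rose and 2 fell ad libitum, 7 of 28 and 9 of 24 called beside 26.9% and 27.2% of all genes. Adamts2, which trims the ends of procollagen, rose by 0.39 ± 0.10 and 0.46 ± 0.13, P3h3, a prolyl hydroxylase family member, by 0.24 ± 0.08 under reverse-phase feeding, and Creb3l1, a factor of collagen secretion, and Serpinh1, the collagen chaperone, by 0.66 ± 0.21 and 0.35 ± 0.11 ad libitum. Mia3, which loads procollagen for export, had a difference of -0.38 ± 0.07 under reverse-phase feeding and -0.28 ± 0.05 ad libitum, both called lower. Among the 5 lysyl oxidases, the cross-linking enzymes, 2 of 5 rose and 0 fell with reverse-phase meals and 2 of 4 rose and 0 fell ad libitum. Loxl4 spanned 80.5 to 151 CPM in knockout livers, against 0.647 to 12.7 CPM in control livers under reverse-phase feeding (5.25 ± 0.10), with no overlap. Ad libitum it spanned 75.9 to 160.2 against 0.964 to 52.6 CPM (4.50 ± 0.15), again with no overlap. Loxl2 rose by 0.46 ± 0.14 and 0.68 ± 0.15.

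For genes that break collagen down or restrain that, the reverse-phase table had 3 higher and 2 lower in knockout liver of 12, and the ad libitum one had 4 higher and 2 lower of 11. Of all genes, 26.9% and 27.2% were called, shares that also stand beside the receptor and other matrix counts that follow. The membrane proteases Mmp15 (-0.52 ± 0.08) and Mmp14 (-0.33 ± 0.11) fell under reverse-phase feeding, as they did ad libitum (-0.37 ± 0.08 and -0.30 ± 0.10), and the protease inhibitor Timp3 rose (0.24 ± 0.09). Ad libitum the gelatinase Mmp2 (0.53 ± 0.14) rose along with Reck (0.53 ± 0.14) and Timp3 (0.38 ± 0.09), both inhibitors of such proteases. Of collagen receptors, 2 of 7 rose and 0 fell with reverse-phase meals, near the share of all genes called. Ad libitum 4 of 7 rose and 0 fell. Among those that rose were the collagen-sensing kinase Ddr2 (0.25 ± 0.08 and 0.40 ± 0.09), the integrin chain Itga1 (0.19 ± 0.07 and 0.40 ± 0.06) and, ad libitum, the uptake receptor Mrc1 (0.22 ± 0.08). Of other matrix genes, 17 of 31 rose and 1 fell with reverse-phase meals and 18 of 30 rose and 2 fell ad libitum. They were led by the basement membrane linker Nid2 (0.88 ± 0.10 and 1.12 ± 0.12). Beside it stood Fbln1 (0.70 ± 0.22) and the laminin chain Lama2 (0.54 ± 0.13) under reverse-phase feeding. Ad libitum these were the matrix proteins Postn (0.58 ± 0.11) and Sparc (0.55 ± 0.11), both also called higher under reverse-phase feeding (0.44 ± 0.11 and 0.23 ± 0.07). Of the TGF-β and PDGF pathway genes, which drive stellate cells to make collagen, 4 of 20 rose and 2 fell with reverse-phase meals and 4 of 19 rose and 1 fell ad libitum. That is 6 of 20 and 5 of 19 called, a share near the 26.9% and 27.2% of all genes. The rises included Ltbp1, which holds latent TGF-β in the matrix (0.37 ± 0.12 and 0.50 ± 0.13), and the receptor Pdgfra (0.31 ± 0.09 and 0.45 ± 0.13). Thbs1, an activator of TGF-β (0.64 ± 0.21), rose under reverse-phase feeding, and Ctgf (0.59 ± 0.15) and the ligand Pdgfb (0.49 ± 0.17) ad libitum. The genes that fell, named here after their values were seen, were the TGF-β receptor Tgfbr2 (-0.25 ± 0.07 and -0.20 ± 0.06) under both schedules and the signal transducer Smad4 (-0.13 ± 0.04) under reverse-phase feeding. For the genotype difference in endothelial and Kupffer cells limma called 0 genes of all these lists. For the rhythm difference in endothelial cells it called the laminin chains Lama5 (adjusted p = 0.0357) and Lamb2 (adjusted p = 0.0315), with 2.04% of all genes called.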

How the data were processed

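RNA of 144 libraries was read from 4 tables, 1 per sample type and feeding schedule. Total RNA was purified by Trizol and column and sequenced as TruSeq libraries, per the labels' protocols. STAR, HOMER and mm9 are named without versions in the submitters' processing notes. How reads were counted is not given in the sources used. The deposited liver values are expected counts per transcript row, in steps of 0.5 (not whole for 31.9% of reverse-phase and 29.5% of ad libitum values), and were rounded here. Both isolated-cell tables were deposited as a quantile-normalised signal, a step read from the values, since all 24 columns of a table share 1 set of sorted values; no label states it. Ties and ranks in those tables are the authors', and a shift shared by many genes would not show.

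Where a symbol had several rows, the one highest on average across the libraries (tables scaled to their totals) stood for it. Liver counts were tested in edgeR 4.0.16 (R 4.3.3) by quasi-likelihood after TMM scaling and its filter on low counts, and signal in limma 3.58.1 on log2(signal + 1) for genes at 10 or more in at least 3 libraries, so log2 differences of low genes there are understated. The design held a mean and a 24 h cosine and sine for each genotype. The tests were the genotype difference, the rhythm in each genotype and its difference; 1 fit of the 96 liver libraries tested both against feeding. P-values were adjusted by Benjamini-Hochberg over all genes of a table. Peak times and ratios come from the fitted curve, and a peak's error from its F value. The fits were first checked on simulated data with known changes. Simulated genotype effects were recovered for nearly all changed genes. Those effects were large, with a median fitted log2 difference of 0.973 to 0.995 in genes that rose. Every simulated gene had the same spread, so recovery of smaller or noisier effects was not checked. Rhythm differences were recovered for 76% ad libitum and 81.5% under reverse-phase feeding, but for 18.1% in endothelial and 24.1% in Kupffer cells. Of the rhythm difference calls in the simulated cells, 7.69% and 9.43% were false.

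In liver, per-library totals give the counting precision, and p-values in every table rest on the spread between libraries. No 2 replicates held identical values. Each pair of liver replicates differed beyond sampling noise, which cannot be gauged from the normalised signal of the isolated cells. The members and gene lists were chosen with earlier results of these data known. Values in every group were given for members called in a genotype or rhythm difference and for 14 core chains, and up to 3 called genes per other list and liver table. Alternatives were DESeq2 1.42.0 and its size factors, other filters and pseudocounts, time as a factor, a stellate marker covariate, another row per symbol, a block, and libraries left out. Promoters are RefSeq windows on GRCm38.p6, matched by symbol for 35 of 44 members, and were set against no mm9 coordinate.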

Additional observations from a re-analysis of the deposited data

Results flagged for a closer look

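3 results met the criterion that the rhythm differed between genotypes by a test of the difference itself. Col27a1 did so in ad libitum liver (edgeR adjusted p = 1.54e-06), where the fitted peak-to-trough ratio was 2.33 in knockout and 3.69 in control livers with peaks at ZT0.1 ± 0.8 h and ZT16.7 ± 0.5 h. It also did so in reverse-phase-fed liver (adjusted p = 0.016), where the ratio was 1.56 in knockout and 7.54 in control livers with peaks at ZT6.4 ± 2.2 h and ZT5.7 ± 0.4 h. Col4a1 did so in endothelial cells (limma adjusted p = 0.0481), with ratios of 1.41 in cells of knockout and 2.05 in cells of control livers and peaks at ZT23.8 ± 1.4 h and ZT5.6 ± 0.7 h. The ad libitum result held in all 11 alternatives, up to an adjusted p of 0.00479, and the other 2 were lost when the libraries of any 1 replicate number were left out.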

How the results depend on the processing

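Counts of called members depended most on the stellate marker covariate and on the number of libraries. With that covariate 6 members were called for the genotype difference ad libitum and 9 under reverse-phase feeding, against 16 and 18, the ad libitum control rhythm was called in 5 against 9, and the endothelial rhythm difference in 0 against 1. The cause was not tested. The endothelial rhythm difference was also called in 0 with no filter. Without the libraries that stood apart, 4 members were rhythmic in endothelial cells of knockout livers against 2, and 2 in Kupffer cells of control livers against 0.

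Leaving out each replicate number in turn gave 12 to 20 calls for the genotype difference in reverse-phase-fed and 11 to 13 in ad libitum liver. For rhythms it gave 5 to 8 in ad libitum knockout and 5 to 8 in ad libitum control livers, 2 to 6 in reverse-phase-fed knockout and 1 to 3 in reverse-phase-fed control livers, 0 to 3 in endothelial cells of knockout and 0 to 2 in those of control livers, and 0 to 1 in Kupffer cells of control livers. For the rhythm difference it gave 0 to 0 under reverse-phase feeding and 0 to 0 in endothelial cells, against 1 each. For the rhythm by feeding it gave 4 to 8 in the knockout and 5 to 7 in controls. These fits hold fewer samples.

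Of the called values of single genes, 1 changed sign: Col6a3 ad libitum, at -0.12 with the stellate marker covariate. Another 60 lost and 6 gained a call in the same direction under these alternatives, where 981 kept their side of the threshold, 29 of them (0 called) with a change of sign, and 2 lost it without the libraries that stood apart, an alternative chosen after seeing the data.

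Within each sample type and schedule the replicate numbers shared by the genotypes were not shown to pair the libraries. The median correlation of same-numbered deviations was -0.002 ad libitum, 0.032 under reverse-phase feeding, 0.018 in endothelial and 0.039 in Kupffer cells. Not every pair exceeded 0.1, and the highest reached 0.369 under reverse-phase feeding and 0.419 in Kupffer cells. A weak effect shared by number was not excluded. By summed hepatocyte markers, knockout ZT22 replicates 1 to 3 ranked 11, 1 and 23 in endothelial cells and 12, 1 and 21 in Kupffer cells. Knockout ZT4 ranked 3, 10 and 24 in endothelial cells against 3, 9 and 24 in Kupffer cells. Control ZT4 ranked 21, 2 and 7 against 20, 2 and 5. Less alike were control ZT10, at 5, 4 and 17 against 11, 4 and 22, and control ZT16, at 19, 6 and 8 against 10, 7 and 6. Whether same-numbered libraries of the cell types came from the same livers was not tested, so the cell types may not be independent. With the replicate number as a block, the genotype difference was called in 19 under reverse-phase feeding and 16 ad libitum, the endothelial rhythm difference in 0 against 1, and the endothelial and Kupffer genotype difference in 0 and 0. Rhythms under the block were called in 5 (knockout) and 2 (control) under reverse-phase feeding, 9 and 9 ad libitum, and 3 and 2 in endothelial cells, and the rhythm by feeding in 10 and 8.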
